A study of Arabidopsis thaliana with 12 samples.

Results

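The 10 genes described here encode small heat shock proteins of Arabidopsis thaliana. They were chosen by their locus identifiers and grouped by the compartment in which the protein acts, out of 33323 nuclear genes with read counts. There were 4 cytosolic class I genes, HSP17.6C (AT1G53540), HSP18.2 (AT5G59720), HSP17.4 (AT3G46230) and HSP17.8 (AT1G07400). Cytosolic class II was represented by HSP17.6II (AT5G12020) and HSP17.6A (AT5G12030), and the mitochondrion by HSP23.5 (AT5G51440) and HSP23.6 (AT4G25200). The endomembrane gene HSP22.0 (AT4G10250) and the plastid gene HSP21 (AT4G27670) completed the set. All 10 were present among the whole gene, transcription start site (TSS) and gene body counts of the 12 libraries.

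Small heat shock proteins are chaperones that work without ATP. They assemble into oligomers, bind proteins that begin to unfold and hold them until ATP-dependent chaperones such as HSP70 and HSP101 refold them. In plants the family has expanded so that separate nuclear genes serve the cytosol, the mitochondrion, the plastid and the endomembrane system. Most of these genes are nearly silent in leaves and roots at moderate temperature, are switched on by heat shock factors such as HSFA1 and HSFA2 when proteins misfold, and are also active in maturing seeds. The mitochondrial gene HSP23.5 is in addition known as a gene that responds to disturbed mitochondria.

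Occupancy of RNA polymerase II was mapped by sequencing of immunoprecipitated chromatin from 10-day-old seedlings of the Columbia ecotype, with antibodies against the polymerase phosphorylated at serine 2 (S2P) or serine 5 (S5P) of its C-terminal domain. All plants carried the tfIIs-1 insertion (SALK_056755) in the gene of the elongation factor TFIIS. Growth temperature was 22 °C for every library, and no heat treatment is listed. The daily light period was 16 h and the dark period 8 h. The study compared plants treated for 24 h with ethanol (mock) with plants treated for 24 h with 2 mM β-estradiol (induced), 3 libraries for each antibody and treatment. The labels of the induced plants name an inducible GFP-TFIIS for S2P and an inducible GFP-TFIISmut, a mutated form, for S5P; no inducible protein is named for the mock plants. Antibody and induced protein therefore cannot be told apart, nor can estradiol and the protein it induces, and no wild-type plants or input chromatin were analysed here.

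CPM, the unit of level here, is a gene's reads scaled to all nuclear gene reads of its library; levels are not compared between genes because they are not scaled to gene length. In whole seedlings, fewer cells with polymerase on a gene and less polymerase per cell cannot be told apart. Libraries held 115868 to 2537034 reads in nuclear genes. Among the induced libraries, S5P induced 2 had 115868 reads and S2P induced 3 had 210421; in them 3 reads equal 25.9 and 14.3 CPM, so a gene with no read there may still have had a level up to that limit. S2P mock 1 and 2 were shallow as well, with 159951 and 192044 reads, where 3 reads equal 18.8 and 15.6 CPM. The 2 shallow induced libraries also had the lowest induced values in the check of the induced gene. TFIIS (AT2G38560) was at 93.9 and 125 CPM in S2P induced 1 and 2 and at 157 and 179 CPM in S5P induced 1 and 3. It was at 61.8 CPM in S2P induced 3 and 43.2 CPM in S5P induced 2. These last values rest on 13 and 5 reads, so their counting error is wide. The mock libraries had 18.8 to 67.7 CPM of TFIIS. The 2 shallow induced libraries are therefore called "the libraries labelled induced" where a direction rests on them, and the HSP23.5 and compartment results are given with and without them. The 5 markers of green tissue summed to 115 to 745 CPM over the libraries, 10 seed storage and oil body genes to 52.2 to 157 CPM and 4 root genes to 34.5 to 198 CPM; no marker was at 0 in any group.

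One member, HSP23.5, had more polymerase in most induced libraries, with both antibodies. For S2P the mock libraries 1, 2 and 3 had 18.8, 15.6 and 9.46 CPM, from 3, 3 and 24 reads. The S2P induced libraries 1, 2 and 3 had 53.3, 47.6 and 9.5 CPM, from 88, 55 and 2 reads. Both deep induced libraries thus lay above all mock libraries, while the shallow library labelled induced lay among them. For S5P the mock libraries had 15.9, 13.8 and 13.3 CPM, from 10, 5 and 17 reads. The S5P induced libraries 1, 2 and 3 had 64.9, 8.63 and 73.8 CPM, from 107, 1 and 99 reads. Here too both deep induced libraries were above every mock library and the shallow one was below them. The exact 95% Poisson interval of the single read in S5P induced 2 reached 48.1 CPM and that of the 2 reads in S2P induced 3 reached 34.3 CPM. Both limits cover the mock levels and lie below the levels of the deep induced libraries of the same antibody. Such intervals cover counting error only.

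**Figure D1:**
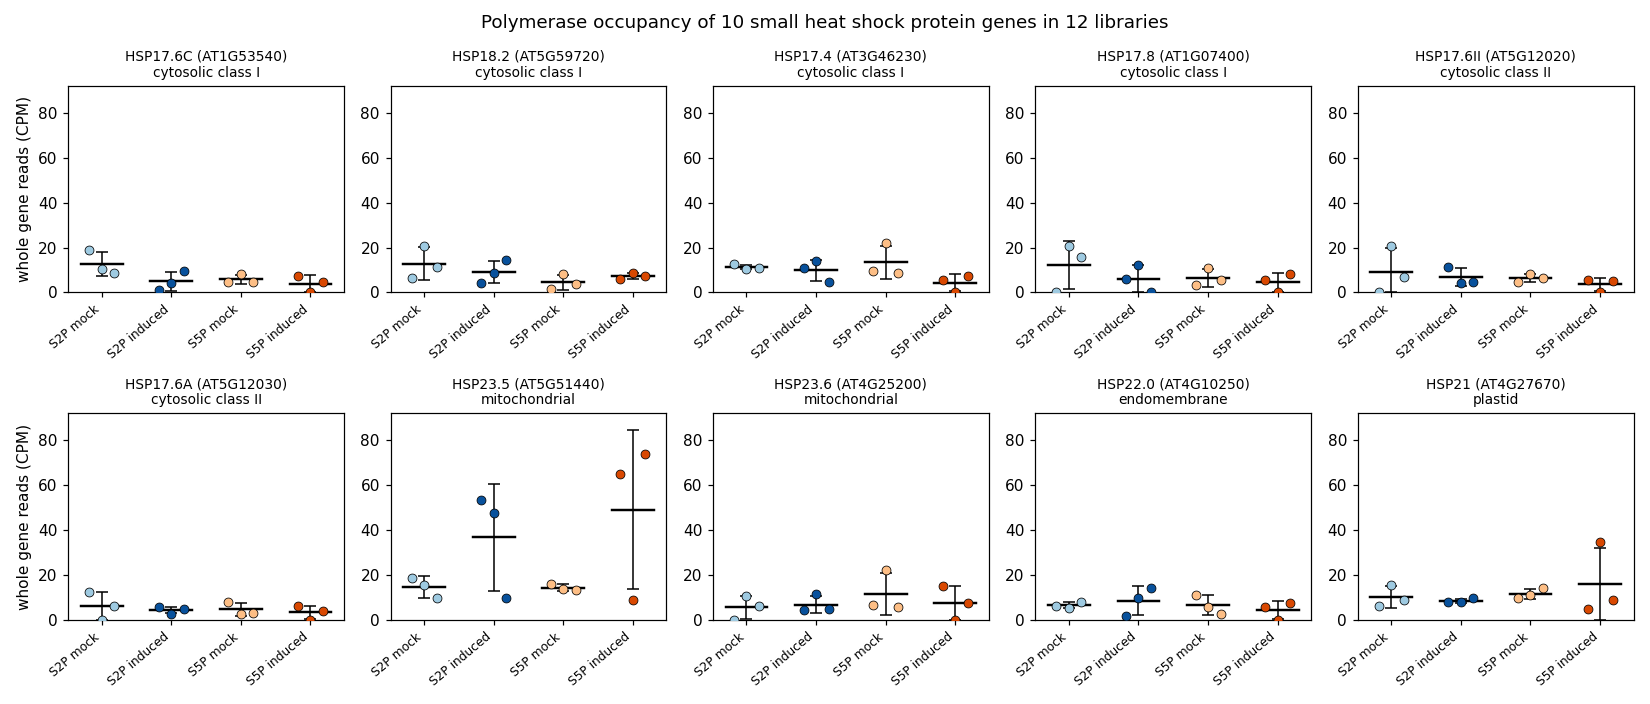
Whole gene reads of each small heat shock protein gene in CPM (vertical axis, from 0) for the 4 groups; each point is 1 of 3 libraries in replicate order, the thick line the mean and the bar the SD, cut at 0. HSP23.5 reached 47.6 to 73.8 CPM in 4 induced libraries, against 9.46 to 18.8 CPM in the mock libraries. The point of HSP21 at 34.5 CPM in S5P induced 2 rests on 4 reads.

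Libraries of the same replicate number deviated together between antibodies in mock but not in induced plants. Adding induced libraries by number is therefore 1 of several possible ways. When the S2P and S5P libraries of the same treatment and replicate number were added, HSP23.5 rose from 16.5, 14.4 and 10.7 CPM in the mock sums to 59.1, 44.0 and 65.1 CPM in the induced sums. The log2 fold change was 2.31 (SE 0.26), or 4.96 times, with an adjusted p of 0.000294 in edgeR's quasi-likelihood test over 25345 genes, of which 3.85% were called. Added by number, the groups did not overlap, all induced sums being higher, as held for 7.83% of genes. Both this separation and the test depend on which libraries are added. The shallow libraries labelled induced, at 9.5 CPM (S2P) and 8.63 CPM (S5P), each lay below every mock sum. Added to each other they therefore lie below the mock sums, and the separation is lost. With the 2 shallow libraries labelled induced added to each other, the log2 fold change was 2.03 (SE 0.44) and no member was called (adjusted p = 0.163 in edgeR, 0.0681% of genes called). With all 12 libraries kept apart and the antibody as a covariate, it was 2.15 (SE 0.33, adjusted p = 0.00160 in edgeR, 491 of 23793 genes called), a fit whose p is too small if the antibodies share plants. Without both shallow libraries that fit gave 2.36 (SE 0.22, adjusted p = 1.08e-05 in edgeR, 4.46% of genes called).

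For each antibody alone HSP23.5 did not pass, and no member had every induced library above every mock library, which held for 2.69% of genes for S2P and 2.32% for S5P. Its mean S2P level was 14.6 ± 4.73 CPM without and 36.8 ± 23.8 CPM with induction (SD, n = 3), a log2 fold change of 2.04 (SE 0.51, adjusted p = 0.241 in edgeR, where 0.016% of 18798 genes were called). Its mean S5P level was 14.3 ± 1.39 and 49.1 ± 35.3 CPM (SD, n = 3), a log2 fold change of 2.15 (SE 0.44, adjusted p = 0.244 in edgeR, where 0% of 21954 genes were called). The unadjusted p values were 0.00126 and 0.000411. DESeq2 called HSP23.5 for S5P (adjusted p = 0.0292, 92 of 21954 genes called) and gave no adjusted p for S2P. Leaving out S2P induced 3 gave 2.33 (adjusted p = 0.0389 in edgeR, 40 of 25062 genes called). Leaving out S5P induced 2 gave 2.37 (adjusted p = 0.00104 in edgeR, 302 of 26076 genes called). Leaving out S2P mock 3, the deepest library, lowered the S2P value to 1.19, and without S2P induced 1 or 2, or for S5P without S5P induced 1 or 3, the gene did not pass the filter on low counts and has no value. The S2P fit without that filter tested all 10 members and called HSP23.5 alone (2.11, SE 0.49, adjusted p = 0.0470 in edgeR, 0.223% of 32344 genes called). The same fit for S5P called 0 members and 0.0866% of genes, with HSP23.5 at 2.19 (SE 0.48, adjusted p = 0.0842 in edgeR, unadjusted p = 0.000107).

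The other mitochondrial gene, HSP23.6, had few reads in every library and no such difference. S2P mock libraries had 0, 10.4 and 5.91 CPM and S2P induced libraries 4.24, 11.2 and 4.75 CPM. S5P mock libraries had 6.36, 22.1 and 5.48 CPM and S5P induced libraries 15.2, 0 and 7.45 CPM. The groups overlapped for both antibodies. In the sums its log2 fold change without the count filter was 0.49 (SE 0.39, adjusted p = 0.573 in edgeR). Pooled over both antibodies HSP23.6 had 36 reads in mock and 56 in induced libraries, a ratio, scaled to library size, of 1.31 with an exact 95% interval of 0.847 to 2.05, while HSP23.5 had 62 and 352 reads, a ratio of 4.78 with an interval of 3.64 to 6.37. These intervals cover counting error only and do not overlap.

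The 4 cytosolic class I genes encode the most abundant small heat shock proteins of heated leaf cells. None was called in any comparison. In the main fits of each antibody alone none of them passed the filter on low counts, so there they were not tested. All were tested in the sums, where 3.85% of all genes were called, and in the fits without that filter. HSP17.6C was at 18.8, 10.4 and 8.67 CPM in S2P mock and at 1.21, 4.32 and 9.5 CPM in S2P induced libraries; for S5P it was at 4.77, 8.27 and 4.70 CPM in mock and at 7.28, 0 and 4.47 CPM in induced libraries. HSP18.2 was at 6.25, 20.8 and 11.4 CPM in S2P mock and at 4.24, 8.65 and 14.3 CPM in S2P induced libraries; for S5P it was at 1.59, 8.27 and 3.91 CPM in mock and at 6.07, 8.63 and 7.45 CPM in induced libraries. Groups overlapped for both genes with each antibody. HSP17.4 was at 12.5, 10.4 and 11.04 CPM in S2P mock and at 10.9, 13.8 and 4.75 CPM in S2P induced libraries; for S5P it was at 9.55, 22.1 and 8.61 CPM in mock and at 5.46, 0 and 7.45 CPM in induced libraries. Every S5P induced library of HSP17.4 was thus below every S5P mock library, as held for 13.3% of all nuclear genes with a read; for S2P, 0 members were so placed, against 9.36% of genes. HSP17.8 was at 0, 20.8 and 15.8 CPM in S2P mock and at 6.06, 12.1 and 0 CPM in S2P induced libraries; for S5P it was at 3.18, 11.03 and 5.48 CPM in mock and at 5.46, 0 and 8.20 CPM in induced libraries.

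In the sums, without the count filter, the class I log2 fold changes were -0.57 (SE 0.37) for HSP17.6C, -0.03 (SE 0.39) for HSP18.2, -0.15 (SE 0.32) for HSP17.4 and -0.30 (SE 0.40) for HSP17.8, with adjusted p from 0.468 to 0.985 in edgeR. The sums of HSP17.6C did not overlap, its induced sums all being lower, which held for 17.1% of genes. The class I totals cover these members only, not the further class I genes HSP17.6A-CI and HSP17.6B-CI given below. Added together, the class I members had 49.0 ± 12.6 CPM in S2P mock and 29.9 ± 8.34 CPM in S2P induced libraries (SD, n = 3). Their S5P means were 30.5 ± 16.7 and 20.2 ± 10.1 CPM (SD, n = 3). The ranges overlapped for both antibodies, with 37.5 to 62.5 against 22.4 to 38.9 CPM for S2P. The pooled ratio of induced to mock reads of class I, scaled to library size, was 0.615 for S2P (exact 95% interval 0.465 to 0.810), 0.966 for S5P (0.680 to 1.38) and 0.713 for both (0.577 to 0.882). For HSP17.6C alone it was 0.319 for S2P (0.132 to 0.699) and 1.10 for S5P (0.499 to 2.49). These intervals cover counting error only, not the spread between libraries. With scaling to total reads, the median log2 fold change of all genes was -0.16 for S2P, -0.15 for S5P and -0.18 in the sums. A typical gene thus also had a lower scaled level in induced libraries. The summed root markers also had lower means in induced libraries, at 159 ± 34.4 against 89.4 ± 11.2 CPM for S2P and 116 ± 2.28 against 73.5 ± 35.2 CPM for S5P (SD, n = 3), and their part in the class I values was not tested.

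The 2 class II genes, whose proteins form oligomers of their own in the cytosol, neighbour each other on chromosome 5 and stayed at low levels. The levels of HSP17.6II were 0, 20.8 and 6.70 CPM in S2P mock and 11.5, 4.32 and 4.75 CPM in S2P induced libraries. For S5P it was at 4.77, 8.27 and 6.26 CPM in mock and at 5.46, 0 and 5.22 CPM in induced libraries. HSP17.6A was at 12.5, 0 and 6.31 CPM in S2P mock and at 5.45, 2.59 and 4.75 CPM in S2P induced libraries, and at 7.96, 2.76 and 3.13 CPM in S5P mock and 6.07, 0 and 3.73 CPM in S5P induced libraries. Groups overlapped in all 4 of these cases. Neither gene had enough reads for the filter, and without it the log2 fold changes in the sums were 0.12 (SE 0.41, adjusted p = 0.926) and -0.09 (SE 0.48, adjusted p = 0.960) in edgeR. The gene next to HSP17.6II on its other side, AT5G12010, chosen for mention after its values were seen, rose in the same test (log2 fold change 1.47, SE 0.23, adjusted p = 0.00267 in edgeR).

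HSP22.0, which works in the endoplasmic reticulum, was at 6.25, 5.21 and 7.88 CPM in S2P mock and at 1.82, 9.51 and 14.3 CPM in S2P induced libraries. For S5P it was at 11.1, 5.51 and 2.35 CPM in mock and at 5.46, 0 and 7.45 CPM in induced libraries. HSP21, the plastid member that associates with thylakoids and nucleoids, was at 6.25, 15.6 and 8.67 CPM in S2P mock and at 7.88, 7.78 and 9.5 CPM in S2P induced libraries, and at 9.55, 11.03 and 14.1 CPM in S5P mock and 4.85, 34.5 and 8.94 CPM in S5P induced libraries. The highest of these, in S5P induced 2, rested on 4 reads. Groups overlapped throughout. In the sums without the count filter HSP22.0 had a log2 fold change of 0.07 (SE 0.42, adjusted p = 0.968) and HSP21 one of -0.17 (SE 0.32, adjusted p = 0.846) in edgeR.

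**Figure D2:**
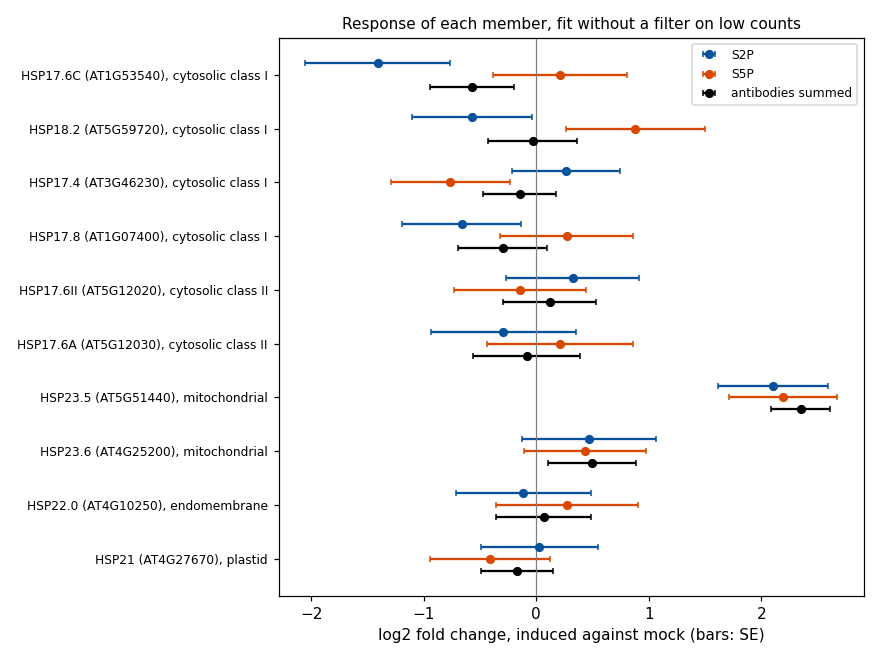
Log2 fold change of each member, induced against mock (horizontal axis, 0 marks no change), from edgeR without a filter on low counts, for S2P, S5P and the sum of both; bars are SE. HSP23.5 lay at 2.11 to 2.35 in the 3 fits, and the other members between -1.41 and 0.88.

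Across compartments, the mitochondrial pair was the class with a higher mean in induced plants for both antibodies, with S2P means of 20.1 ± 5.45 CPM (mock) and 43.5 ± 25.4 CPM (induced), and S5P means of 25.6 ± 9.0 and 56.6 ± 41.6 CPM (SD, n = 3). Class II had S2P means of 15.5 ± 4.67 (mock) and 11.1 ± 5.21 CPM (induced) and S5P means of 11.1 ± 1.67 and 6.82 ± 6.05 CPM (SD, n = 3). Without the shallow libraries labelled induced, the induced means (n = 2) were 58.2 CPM for S2P and 80.7 CPM for S5P in the mitochondrial pair, 30.7 and 25.9 CPM in class I, and 11.9 and 10.2 CPM in class II. The higher mean of the mitochondrial pair was that of HSP23.5: HSP23.6 alone had S2P means of 5.44 ± 5.22 (mock) and 6.74 ± 3.90 CPM (induced), and S5P means of 11.3 ± 9.32 and 7.54 ± 7.58 CPM (SD, n = 3). The endomembrane differences of both antibodies and the plastid difference for S5P turned in sign without the shallow libraries. With 3 libraries per group, each was smaller than the SD of the induced libraries. HSP22.0 had 6.45 CPM in S2P mock and 8.53 CPM in S2P induced libraries, or 5.66 CPM without S2P induced 3, and 6.33 and 4.30 CPM for S5P, or 6.46 CPM without S5P induced 2. HSP21 had 11.6 CPM in S5P mock and 16.1 CPM in S5P induced libraries, or 6.90 CPM without S5P induced 2. Without that library its S5P ranges did not overlap, at 9.55 to 14.1 CPM in mock and 4.85 to 8.94 CPM in induced libraries (n = 2). With all S5P libraries 13.3% of genes were already so placed, and leaving out a library can only add to them. HSP17.6C was so placed for S2P without S2P induced 3, at 1.21 and 4.32 CPM against 8.67 to 18.8 CPM in mock libraries. The shares of all genes so placed without these libraries were not counted. The fits without the count filter gave signs opposite to the means of 3 libraries, at -0.12 (SE 0.60) for S2P and 0.27 (SE 0.63) for S5P in HSP22.0, and 0.03 (SE 0.52) and -0.41 (SE 0.53) in HSP21, all log2 fold changes. The 9 members other than HSP23.5 together had 86.5 ± 26.3 CPM in S2P mock and 64.7 ± 10.6 CPM in S2P induced libraries, and 70.7 ± 24.8 and 54.9 ± 10.2 CPM for S5P (SD, n = 3); without the shallow libraries their induced means were 63.8 and 60.8 CPM (n = 2). HSP23.5 accounted for 10.3% to 23.1% of the reads of the 10 genes in the 6 mock libraries. In the deep induced libraries it accounted for 50.0% and 39.0% for S2P and 51.4% and 55.0% for S5P, and in the shallow ones for 12.5% of 16 reads and 16.7% of 6 reads. This share is free of library size. Fitted as sums without the count filter, 4 of the 10 members had values above 0; their median on the log2 scale was -0.06, beside 0.00165 over all genes. In that fit 1 member was called, against 3.44% of all genes.

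The genes around the small heat shock proteins were examined in lists, to be read against all 25345 genes tested in the sums, of which 3.85% were called, 904 higher and 73 lower, and 3528 were higher and 1445 lower at an unadjusted p under 0.05. Of 21 heat shock factor genes, 17 were tested in the sums and 0 were called. The list holds class A, B and C factors, not only activators such as HSFA1 and HSFA2. At an unadjusted p under 0.05 in edgeR, 4 were higher and 0 lower. Their median log2 fold change was 0.17, against 0.00286 for all genes. HSFA1A (AT4G17750), HSFA1B (AT5G16820) and HSFA1D (AT1G32330), master regulators of the heat response, had 0.33 (SE 0.23), -0.35 (SE 0.22) and 0.70 (SE 0.20), and HSFA2 (AT2G26150), which sustains it, 0.18 (SE 0.29), with adjusted p from 0.0720 to 0.836 in edgeR. The smallest p in the list belonged to HSFA4A (AT4G18880), with 1.18 (SE 0.31, adjusted p = 0.0518 in edgeR), and was called in the fit without the count filter (1.22, SE 0.31, adjusted p = 0.0375 in edgeR, 3.44% of genes called); it was followed by HSFA1D and HSFA5 (AT4G13980), with 0.80 (SE 0.23).

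Among 17 other heat-induced chaperones and targets of heat shock factors, 2 rose and 0 fell in the sums, with a median of 0.04, where 3.85% of all genes were called. These were HSP70 (AT3G12580), with 1.12 (SE 0.21, adjusted p = 0.00942 in edgeR), and CLPB4 (AT2G25140), a disaggregase of the ClpB family that is placed in the mitochondrion, with 1.09 (SE 0.23, adjusted p = 0.0172 in edgeR). HSP101 (AT1G74310), the cytosolic disaggregase, had 0.14 (SE 0.22, adjusted p = 0.753 in edgeR), and HSP90.1 (AT5G52640) 0.59 (SE 0.23, adjusted p = 0.182 in edgeR). Of 6 further small heat shock protein genes, 2 had enough reads and 0 were called in edgeR. HSP17.6A-CI (AT1G59860), a cytosolic class I gene outside the class I totals, had 0.94 (SE 0.34, adjusted p = 0.143 and unadjusted p = 0.0152 in edgeR). Its sign was opposite to that of the class I members. HSP15.4 (AT4G21870) had 0.21 (SE 0.36). HSP17.6B-CI, HSP17.4-CIII, HSP15.7 and HSP26.5 had 8 to 24 reads in each group.

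Genes of mitochondrial folding and signalling were examined next. Of 6 mitochondrial chaperone genes 2 rose and 0 fell in the sums, with a median log2 fold change of 0.72, where 3.85% of all genes were called. They were mtHSC70-1 (AT4G37910) and mtHSC70-2 (AT5G09590), HSP70-type import and folding chaperones of the matrix, with 1.33 (SE 0.24, adjusted p = 0.00713 in edgeR) and 0.80 (SE 0.20, adjusted p = 0.0358 in edgeR). HSP60 (AT3G23990), of the matrix chaperonin, had 0.72 (SE 0.23, adjusted p = 0.0954 in edgeR). Of 12 markers of mitochondrial retrograde signalling, by which a disturbed mitochondrion alters nuclear transcription, 10 rose and 0 fell in the same fit, with a median of 2.50. The smallest p values were those of the glucosyltransferase gene UGT74E2 (AT1G05680), with 3.09 (SE 0.26, adjusted p = 5.16e-05 in edgeR), of UPOX (AT2G21640), with 3.04 (SE 0.26, adjusted p = 5.16e-05 in edgeR), and of the alternative oxidase gene AOX1D (AT1G32350), with 2.71 (SE 0.25, adjusted p = 8.09e-05 in edgeR). The marker list was written with earlier results of these data known, so its direction is not independent evidence.

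With the 2 shallow libraries labelled induced added to each other, 3 of the 12 retrograde markers, 0 of the 6 mitochondrial chaperones and 0 of the 17 heat-induced genes were called in edgeR, where 0.0681% of all genes were called, with 10, 0 and 2 higher at an unadjusted p under 0.05 and medians of 2.29, 0.51 and -0.05. In these libraries the retrograde markers stood between the mock and the deep induced libraries. Their summed level was 313, 474 and 415 CPM in S2P mock and 360, 474 and 463 CPM in S5P mock libraries. It was 822 CPM in S2P induced 3 and 880 CPM in S5P induced 2, and 1405 and 1653 CPM in the deep S2P and 1944 and 2045 CPM in the deep S5P induced libraries. The mitochondrial chaperones summed to 219 and 121 CPM in the shallow libraries labelled induced, against 238 to 361 CPM in mock libraries and 345 to 584 CPM in the deep induced libraries.

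**Figure D3:**
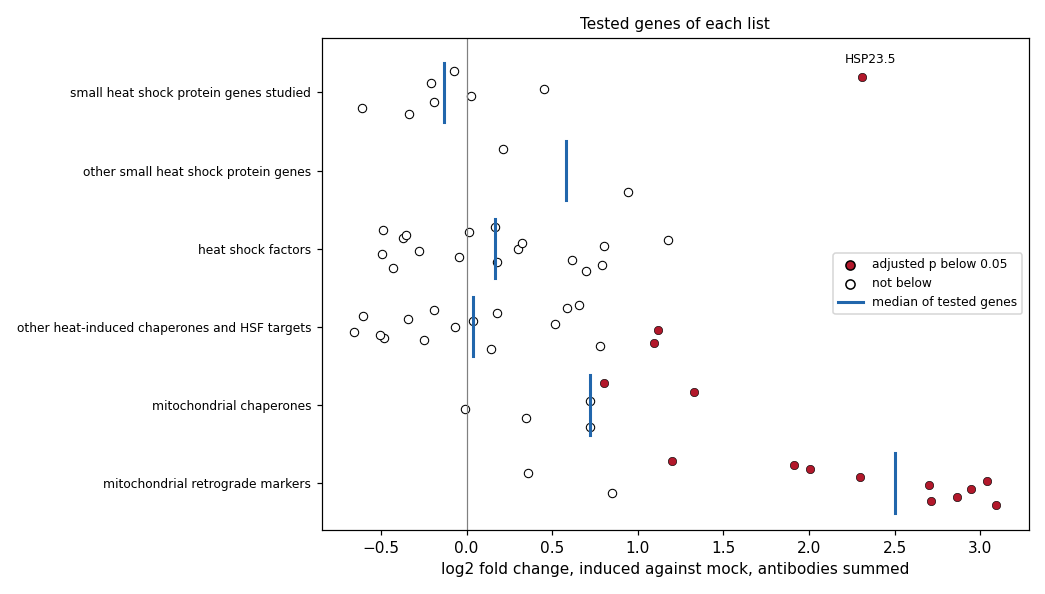
Log2 fold change of each tested gene in the sums of both antibodies, induced against mock (horizontal axis), by gene list (vertical axis); filled points have an adjusted p below 0.05 in edgeR and blue lines are medians. HSP23.5 at 2.31 lay among the retrograde markers, whose median was 2.50, while the median of the small heat shock protein genes was -0.13.

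**Figure D4:**
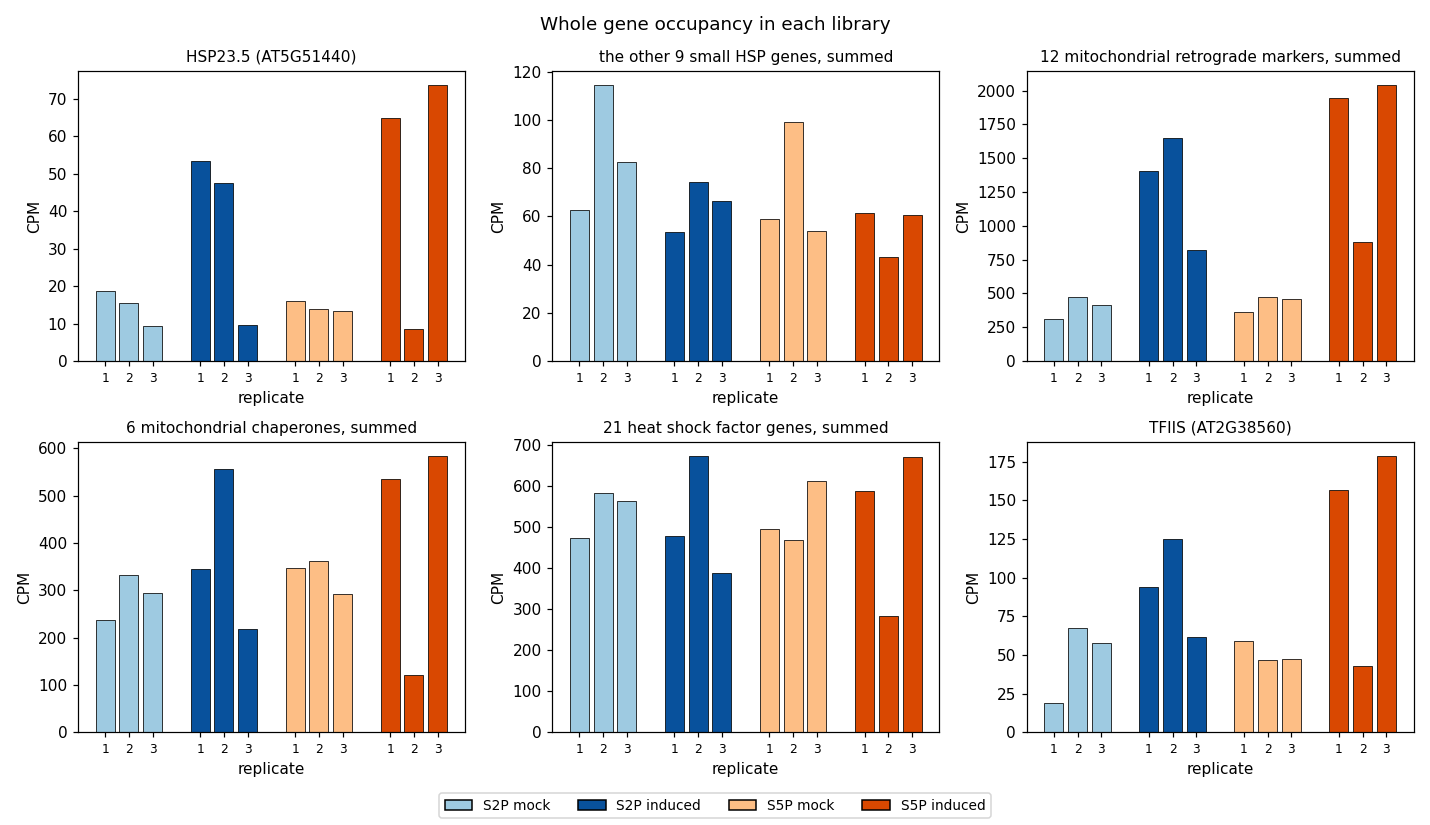
Whole gene occupancy in CPM (vertical axes, from 0) in each of 12 libraries, by replicate number, with 1 bar a library; lists are sums over their genes. HSP23.5, the retrograde markers and TFIIS had their highest values in the same 4 deep induced libraries, and the other 9 small heat shock protein genes did not.

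The files also split the reads of each gene between a TSS window and the gene body. The TSS window held 79.4% of the TSS and gene body reads of HSP17.6A, 73.8% of those of HSP17.4, 50.6% of those of HSP22.0 and 49.5% of those of HSP23.5, pooled over the 12 libraries. Over all nuclear genes the group means were 21.4% to 27.2%. The sources used here do not give the bounds of either window, and gene length was not used here, so the windows of short and long genes cannot be set on one scale. Reads of the 10 members in the 2 windows added to 1.14 times their whole gene reads, so some reads were counted in both.

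In both windows the deep induced libraries had more HSP23.5 than the mock libraries of the same antibody. In the gene body its S2P levels were 15.2, 19.5 and 8.06 CPM in mock and 39.2, 28.9 and 12.6 CPM in induced libraries, and its S5P levels 13.9, 6.90 and 11.4 CPM in mock and 43.8, 12.5 and 46.7 CPM in induced libraries. The log2 fold changes there were 1.74 (SE 0.47, adjusted p = 0.323) for S2P and 1.94 (SE 0.38, adjusted p = 0.184) for S5P in edgeR, where 0.00626% and 0% of genes were called; the unadjusted p values were 0.00247 and 0.000276, and DESeq2 gave an adjusted p of 0.266 for S5P and none for S2P. No member had groups that did not overlap in the gene body, where such induced libraries were higher for 2.79% (S2P) and 2.51% (S5P) of genes and lower for 8.78% and 11.8%. In the TSS window its S2P reads were 2, 1 and 8 in mock and 48, 32 and 1 in induced libraries, and its S5P reads 3, 3 and 6 in mock and 59, 0 and 63 in induced libraries. No member passed the filter in that window, and without it HSP23.5 had log2 fold changes of 2.48 (SE 0.89) for S2P and 2.47 (SE 0.93) for S5P, with adjusted p of 0.946 and 0.995 in edgeR. Of the members in the TSS window, 0 had all induced libraries higher, against 2.43% (S2P) and 2.26% (S5P) of genes; HSP17.6C had all lower for S2P, against 8.36% of genes, and HSP17.4 and HSP17.6II for S5P, against 10% of genes. The TSS share of HSP23.5 was 33.3% (exact 95% binomial interval 17.96% to 51.8%) in S2P mock and 50.6% (42.6% to 58.6%) in S2P induced libraries, and 36.4% (20.4% to 54.9%) and 52.8% (46.2% to 59.4%) for S5P. The intervals of mock and induced libraries overlapped for both antibodies, and rest on 33 mock reads each.

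**Figure D5:**
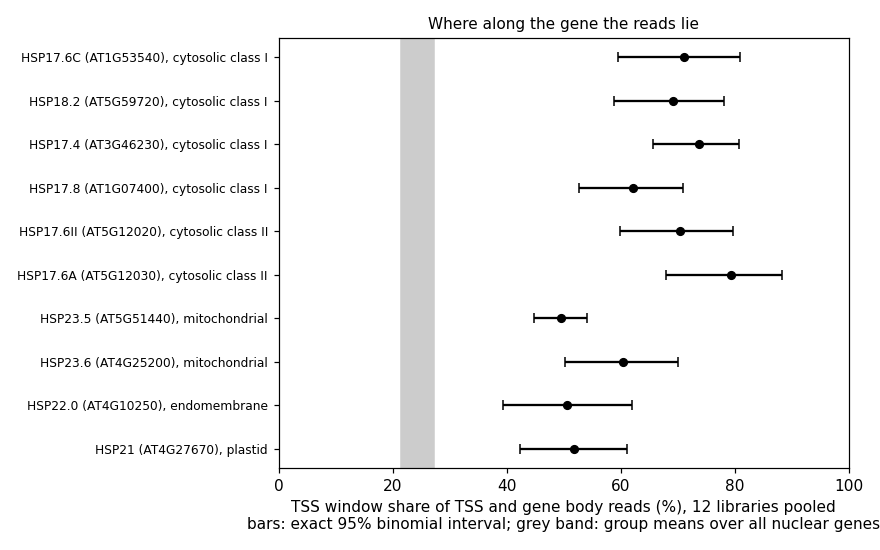
Share of TSS and gene body reads that fell in the TSS window (horizontal axis, in %) for each member, pooled over 12 libraries; bars are exact 95% binomial intervals and the grey band spans the group means over all nuclear genes, 21.4% to 27.2%. All 10 members lay to the right of the band, from 49.5% to 79.4%.

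Antibodies were compared in mock plants, where no member had enough reads for the filter and 0% of 16388 genes were called, with 372 at an unadjusted p under 0.05 and 0 called by DESeq2. With the replicate number as a block, which treats same-numbered libraries as pairs, 230 genes were called in edgeR, 98 higher and 132 lower for S5P. In that fit 1660 genes had an unadjusted p under 0.05 in edgeR, and again no member was tested. Without the filter and the block HSP23.5 had a log2 difference, S5P against S2P, of 0.38 (SE 0.45). HSP18.2 had -1.54 (SE 0.60) and HSP17.8 -1.31 (SE 0.55), with an adjusted p of 1.00 in edgeR for both and unadjusted p of 0.0144 and 0.0216. HSP17.6C was lower in each S5P mock library than in each S2P mock library, as were 3.77% of genes. An interaction term compared the response to induction between antibodies. The difference of the log2 fold changes, S5P less S2P, was 0.13 (SE 0.75) for HSP23.5, and 0 of the 6 members tested were called in edgeR, 0 had an unadjusted p under 0.05 and DESeq2 called 0; 0% of 23793 genes were called.

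Among 22299 nuclear genes with a mean of at least 10 CPM, those whose log2 CPM over the 12 libraries was most like that of HSP23.5 were DAL1 (AT1G63900, Pearson r = 0.955), RCD1 (AT1G32230, 0.954), AT5G20160 (0.953), PREP1 (AT3G19170, 0.948) and CLPB4 (0.945). The closest to the summed class I genes were AT2G42060 (0.921), AT3G12981 (0.917), CPK34 (AT5G19360, 0.909), PHR1 (AT1G12370, 0.900) and AT2G38010 (0.896). The 12 points share depth differences between libraries, and the values are descriptions. Between HSP23.5 and the other members r ran from -0.42 for HSP21 to 0.33 for HSP23.6. The genes that neighbour HSP23.5 did not pass in the sums: EYE (AT5G51430) had 0.56 (SE 0.22, adjusted p = 0.184) and RIN3 (AT5G51450) 0.31 (SE 0.25, adjusted p = 0.528) in edgeR. AT4G27680, next to HSP21 and chosen for mention after its values were seen, rose (1.14, SE 0.22, adjusted p = 0.0108 in edgeR).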

How the data were processed

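The authors deposited raw read counts per gene, 1 table each for whole gene, TSS window and gene body in each of 12 libraries; the counts are not normalized. Trimmomatic, HTSeq and the build TAIR10 are named per the submitters' processing notes; for versions, aligner, strand setting and window bounds, not given in the sources used here, nothing is assumed, and overlapping genes may share reads. Lines that name no gene stayed out of library sizes and tests; reads outside genes were 16.1% to 38.6% of counted alignments, and 74.7% to 96.7% of reads were not aligned. Organelle genes were left out. Symbols come from a RefSeq table of assembly TAIR10.1, which matched 32835 genes; other names are textbook names. No table of promoter or protein sequences was used here.

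Tests used edgeR 4.0.16 in R 4.3.3 (quasi-likelihood, TMM factors, filterByExpr at a minimum of 10 counts, Benjamini-Hochberg over all nuclear genes tested, threshold 0.05), on 6 libraries per antibody. The SE was derived from the F statistic. A further test added the S2P and S5P counts of the same treatment and replicate number, since the members have few reads; it mixes the induced proteins that the labels name. The code was tested on simulated data. Alternatives were RLE factors, total counts, no count filter, DESeq2 1.42.0, a replicate block and leaving out each library. The 2 fits that treat the shallow induced libraries differently, and means without them, were chosen after seeing the data. The 10 genes and the lists were chosen with earlier results of these data known. All members and TFIIS were named, the listed regulators, and up to 3 genes of each list with the smallest p. Separate cultures are not stated for the replicates; p-values then reflect only how far these samples spread, which may be technical.

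Same-numbered S2P and S5P mock libraries deviated together, at correlations of 0.140, 0.222 and 0.336 across 22300 genes (each library less its group mean). Replicate 3 was also the deepest mock library of both antibodies, so shared plants and shared depth cannot be told apart in these values. Same-numbered induced libraries did not deviate together, at -0.212, -0.520 and -0.365. S2P induced 2 had 0.620 with S5P induced 3 and 0.292 with S5P induced 1. S5P induced 2 had 0.287 with S2P induced 3 and 0.275 with S2P induced 1. The remaining pairs of induced libraries were negative, at -0.286 and -0.129. Mock and induced libraries of the same number had 0.0823, -0.131 and -0.208 for S2P and 0.00416, 0.188 and 0.316 for S5P. Numbers thus do not pair mock with induced libraries for S2P, and whether they do for S5P was not settled.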

Additional observations from a re-analysis of the deposited data

How the results depend on the processing

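HSP23.5 (AT5G51440) kept a positive fold change in every alternative that tested it, in the antibody sums and for each antibody alone; without S2P induced 1 or 2, or S5P induced 1 or 3, it was not tested for that antibody. In the sums its log2 fold change ran from 2.02 to 2.42 when each sum was left out in turn. In the sums it passed the threshold under every alternative except the fit with both shallow induced libraries in 1 sum. That fit called 0 members in place of 1, and 18 genes in place of 977. The sums gave 1 member under every other alternative. Over all genes DESeq2 called 42 for S2P and 92 for S5P, where edgeR called 3 and 0, and in the gene body 24 and 52, where edgeR called 1 and 0; without the count filter edgeR called 72 and 28 over whole genes. For S2P the count of members past the threshold was 0, and 1 without the count filter; leaving out each library gave 0 to 1. For S5P it was 0, and 1 with DESeq2; leaving out each library gave 0 to 1. For the S5P gene body it was 0, and 1 without the count filter; leaving out each library gave 0 to 1. Signs turned for members near 0, and the cause was not tested. In the sums the log2 fold change of HSP22.0 (AT4G10250), 0.03, was -0.011 with RLE factors, -0.14 with total counts, -0.045 with 12 libraries and the antibody as covariate without both shallow ones, -0.052 with both shallow ones in 1 sum, and from -0.25 to 0.42 without each sum; that of HSP18.2 (AT5G59720), -0.07, was 0.13 with the replicate block and from -0.36 to 0.20 without each sum. HSP17.8 (AT1G07400) ran from -0.66 to 0.14 and HSP23.6 (AT4G25200) from -0.041 to 0.78 without each sum. In the interaction HSP23.5 ran from -0.14 to 0.61 and HSP23.6 from -0.235 to 0.52 without each library, HSP23.6 was 0.40 with the replicate block, and HSP21 (AT4G27670) was 0.13 with DESeq2. The replicate block changed no call of a member, but moved the count of genes called between antibodies in mock plants from 0 to 230; with it the S2P log2 fold change of HSP23.5 was 1.29 and the S5P one 2.06. With few reads per member, fold changes well above the SE given can go uncalled at this depth. HSP23.5 for S2P, at a log2 fold change of 2.04 (SE 0.51), had an adjusted p of 0.2415 in edgeR. A member that was not called may therefore still have changed.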
